A study of Mus musculus with 15 samples.

Results

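The response of cultured mouse microglia to interleukin-4 (IL-4) was described from 9 of the 15 arrays of the series, 3 of cells given IL-4 and 6 of untreated cells, chosen by the treatment label. The IL-4 cells had received 100 U/ml of the cytokine for 24 h, and the untreated cells had received none. The other 6 arrays, 3 with lipopolysaccharide (LPS, 500 ng/ml) plus interferon-γ (IFN-γ, 20 ng/ml) and 3 with TGF-β (transforming growth factor-β) at 50 ng/ml, both also for 24 h, entered the same model and served to show where IL-4 stood apart. All cells were microglia grown in serum-free N2 medium from C57BL/6 embryonic stem cells, a model without the neurons, astrocytes and blood vessels that surround microglia in the brain, and total RNA was hybridised to Illumina mouse bead arrays. Whether the arrays of a group stand for separate cultures is not stated in the labels, and the series text speaks of triplicates while 6 arrays are labelled as untreated. The p-values therefore reflect how much these arrays scatter, and that scatter may be technical.

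IL-4 is made by T helper cells and other cells of type 2 immunity. It binds the IL-4 receptor α chain, paired with either the common γ chain or the IL-13 receptor α1 chain, and the Janus kinases on these chains phosphorylate the transcription factor STAT6 and the adaptor IRS2. In macrophages and microglia STAT6 switches on arginase 1, lectin receptors of the mannose and galactose type and other genes known together as alternative activation, while many Toll-like receptor and cytokine genes are held down. In RNA of a whole culture, as measured here, fewer cells of a kind and less RNA per cell cannot be told apart.

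Levels below are background-corrected, quantile-normalized signals on the log2 scale, and differences are IL-4 minus untreated on that scale with their standard error, from a linear model fitted with limma to all 15 arrays. A gene was called when its Benjamini-Hochberg adjusted p over the 8558 genes tested was under 0.05. IL-4 moved 1024 genes, of which 483 rose (5.64% of those tested) and 541 fell (6.32%). Most changes were small: the median difference was 0.47 among the genes that rose and -0.39 among those that fell, and 46 risen and 8 fallen genes moved by at least 2-fold. All 3 IL-4 arrays lay outside the range of the 6 untreated arrays for 939 of the called genes and for 1724 genes in all (20.1%), above it for 8.79% and below it for 11.4%. Counts of called members of the gene lists below are to be read against the shares of 5.64% and 6.32%. Statements below that the groups did not overlap are to be read against 20.1%, 8.79% and 11.4%. The genes named for the largest differences, 15 in each direction, had to be without overlap, so for them it is no separate result. Each of the 3 bead chips held 1 IL-4 array and 1, 3 or 2 untreated arrays, and 1018 of the called genes moved in the same direction within every chip. The same arrays gave the calls, so this agreement is no separate result. The near balance of rises and falls depended on how the arrays were scaled to each other: 47.2% of calls were rises here, 59.3% of 981 calls after cyclic loess and 38.6% of 345 calls after scaling by the median alone, which set the median gene at -0.11 in place of -0.02. The count of calls fell without any 1 of the IL-4 arrays, to 594, 748 and 603 without IL-4 replicates 1, 2 and 3.

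**Figure D1:**
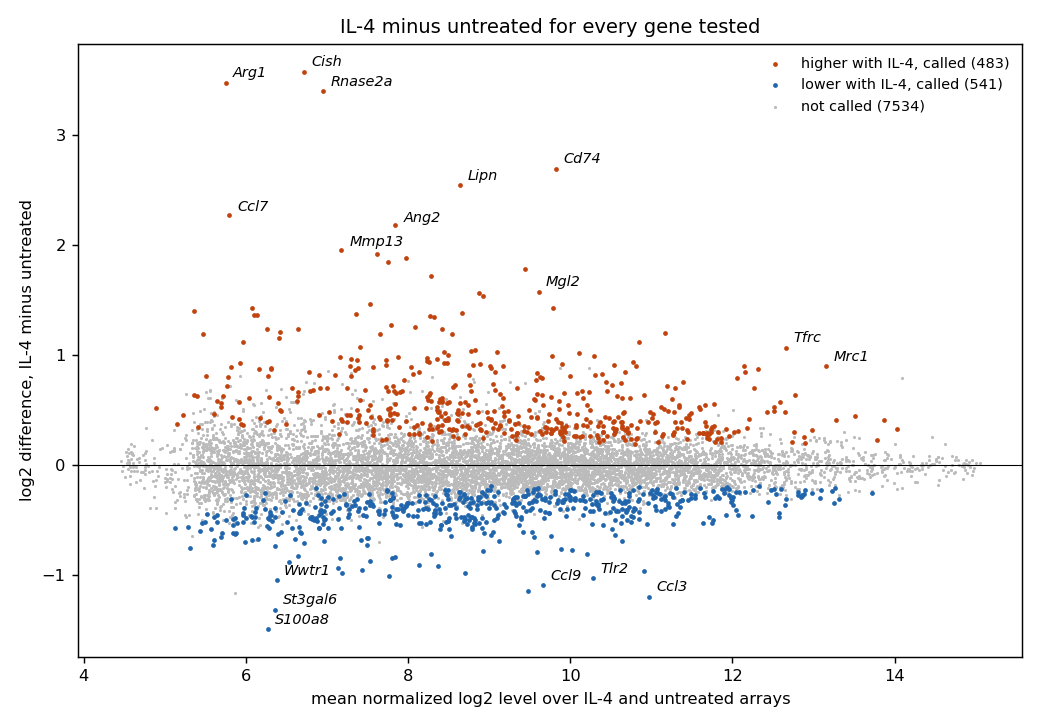
Difference in log2 level, IL-4 minus untreated (vertical axis), against the mean log2 level over the 9 arrays (horizontal axis) for the 8558 genes tested, with the 483 called rises in red, the 541 called falls in blue and all other genes in grey. The rises reach 3.58 (Cish), the falls -1.49 (S100a8), and most calls lie close to the grey band.

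Genes that define macrophages were above background, and only some of those that define brain microglia were. Csf1r, the receptor for the growth factors that keep microglia alive, read 10.80 to 10.96 with IL-4 and 10.45 to 10.68 in untreated cells. Its difference of 0.28 ± 0.16 was not called. Tyrobp, a signalling adaptor, read 12.26 to 12.47 with IL-4 and 12.10 to 12.53 in untreated cells, and its partner Trem2, a lipid sensor, read 12.09 to 12.37 with IL-4 and 12.22 to 12.44 in untreated cells. Adgre1 (F4/80), Aif1 (Iba1), Itgam, Spi1, Ptprc and Sall1 were also above background on all 9 arrays. Tmem119, Cx3cr1, Olfml3, C1qb and C1qc, by contrast, were above background on none of the 9 arrays, and P2ry12, P2ry13, Siglech, Gpr34 and Fcrls on none of all 15. A probe below background does not show that its gene was silent. The IL-4 receptor gene Il4ra, too, was above background on none of the 15. Of the 29 microglial and macrophage identity genes listed, 19 could be tested, and 4 rose and 0 fell, where 5.64% of all genes tested rose. They were Aif1 (0.97 ± 0.11), Mertk, a receptor for engulfing dying cells (0.83 ± 0.18), Runx1, a transcription factor of the lineage (0.71 ± 0.18), and Adgre1 (0.70 ± 0.09). Mertk lost its call without IL-4 replicate 1 (adjusted p = 0.051) and Runx1 without IL-4 replicate 1 or 3 (up to 0.11) and after scaling by the median alone.

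Most markers of other cells were below background. None of the 10 neuronal and none of the 8 matched lymphocyte and mast cell markers was above background on an IL-4 or untreated array, and neither were 9 of 10 stem cell markers, Nanog and Sox2 among them. The remaining stem cell marker read 5.39 to 5.83 with IL-4 and 5.02 to 5.86 in untreated cells, and was not called. The summed level of the endothelial markers was 13.11 to 13.38 with IL-4 and 12.22 to 12.84 in untreated cells, which rested on Flt1, a VEGF receptor that macrophages also make (0.64 ± 0.13). Among astrocyte markers 3 of 8 were measured, Aldoc, Slc1a2 and Aldh1l1, with a summed level of 12.05 to 12.19 with IL-4 and 11.88 to 12.07 in untreated cells, while Gfap and Aqp4 were below background everywhere. Among dendritic cell markers 2 of 8 were measured, Itgax and Batf3, with 7.70 to 8.34 with IL-4 and 7.70 to 8.16 in untreated cells, and among oligodendrocyte markers 1 of 9, Cnp, with 7.03 to 7.20 with IL-4 and 6.83 to 7.44 in untreated cells. None of these 6 genes was called. The other endothelial marker measured, Vwf, differed by -0.01 ± 0.11, and Pecam1, Cdh5, Kdr and Tek were below background everywhere. The only fibroblast and smooth muscle marker measured, Acta2, fell by 0.52, and the only neutrophil marker measured was S100a8, with Mpo, Elane and S100a9 below background on every array. The part of other cells in the results was not tested beyond these values.

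The 4 marker genes of the IL-4 state were chosen with earlier results of these arrays known, so their rise is no separate result. All 4 rose, and the groups did not overlap on any of them. IL-4 lay above every untreated array, as for 8.79% of all genes tested. Arg1, the arginase that turns arginine into ornithine and urea, read 8.20, 8.14 and 7.86 on the IL-4 arrays and had a lowest, median and highest value of 4.50, 4.61 and 4.67 on the untreated arrays, where it was never above background. On this probe, the brighter of 2 kept, that is at least 5.17-fold higher with IL-4 (adjusted p = 3.1e-13). The dimmer probe rose by less (1.95 ± 0.19). Cish, a SOCS-family protein that blocks cytokine receptors, read 9.21, 9.12 and 8.97 with IL-4, against 5.20, 5.49 and 5.84 in untreated cells (lowest, median and highest, as for the genes below), a difference of 3.58 ± 0.35 (adjusted p = 8.8e-06). It was above background on 2 of the 6 untreated arrays, so the low end is poorly measured. Cish was not particular to IL-4: its difference from LPS/IFN-γ was 0.82 ± 0.40 in the same model (adjusted p = 0.1). Mgl2, a lectin for galactose-type sugars, read 10.78, 10.76 and 10.45 with IL-4, against 8.96, 9.09 and 9.16 in untreated cells, a difference of 1.58 ± 0.08 (adjusted p = 6.5e-09). Mrc1, the mannose receptor, read 13.85, 13.73 and 13.68 with IL-4, against 12.72, 12.87 and 12.99 in untreated cells, where it was already bright, a difference of 0.90 ± 0.08 (adjusted p = 3.3e-06). Within the 3 chips the difference was 3.26 to 3.58 for Arg1, 3.18 to 4.02 for Cish, 1.34 to 1.70 for Mgl2 and 0.82 to 0.91 for Mrc1.

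**Figure D2:**
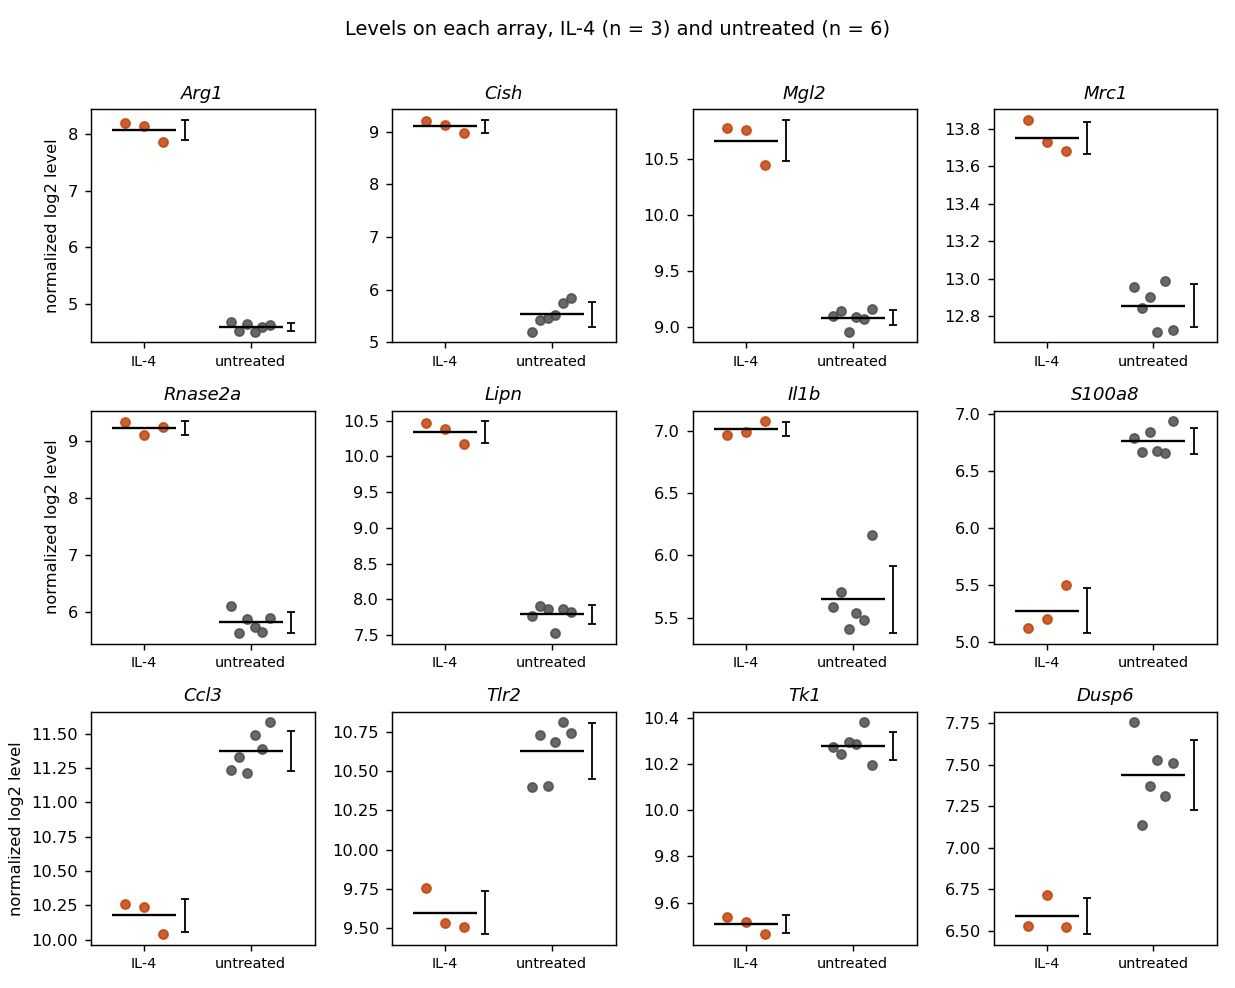
Normalized log2 level (vertical axes, each panel on its own scale and not starting at 0) on every array for 12 genes, IL-4 (3 arrays, red) left of untreated (6 arrays, grey). Black bars are group means with SD beside them; in all 12 panels the IL-4 arrays lie outside the range of the untreated arrays.

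The promoters of the induced genes were searched for the sequence that activated STAT dimers bind, TTC and GAA held apart by a short spacer. STAT6 favours a spacer of 4 bases of any kind, and STAT5 and other STATs one of 3, and both forms read the same on either strand. RefSeq promoters (GRCm38.p6) ran from 250 bases before to 50 bases after the gene start, and 109 of the 151 genes named had an entry, 18 with a match. They are shown for Cish, Ms4a7 and Cbr2, risen genes with a match, and for the markers Mgl2 and Mrc1, which had none in this window. Capitals mark the matches. Cish lies at chr9:107296409-107296708 on the plus strand, Ms4a7 at chr19:11336097-11336396 on the minus strand, Cbr2 at chr11:120731972-120732271 on the minus strand, Mgl2 at chr11:70130107-70130406 on the plus strand and Mrc1 at chr2:14229164-14229463 on the plus strand, and each sequence is written along its gene's strand.
Cish: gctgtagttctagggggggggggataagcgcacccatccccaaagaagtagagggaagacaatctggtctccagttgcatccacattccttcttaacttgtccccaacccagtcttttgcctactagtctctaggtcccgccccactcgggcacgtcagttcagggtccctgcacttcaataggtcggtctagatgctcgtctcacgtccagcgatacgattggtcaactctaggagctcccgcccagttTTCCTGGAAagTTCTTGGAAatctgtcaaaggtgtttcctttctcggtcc
Ms4a7: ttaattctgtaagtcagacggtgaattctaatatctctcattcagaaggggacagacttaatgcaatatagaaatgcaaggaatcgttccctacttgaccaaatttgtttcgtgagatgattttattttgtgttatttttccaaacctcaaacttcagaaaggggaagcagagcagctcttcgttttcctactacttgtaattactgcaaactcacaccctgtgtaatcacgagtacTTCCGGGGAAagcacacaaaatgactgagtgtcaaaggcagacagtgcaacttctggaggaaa
Cbr2: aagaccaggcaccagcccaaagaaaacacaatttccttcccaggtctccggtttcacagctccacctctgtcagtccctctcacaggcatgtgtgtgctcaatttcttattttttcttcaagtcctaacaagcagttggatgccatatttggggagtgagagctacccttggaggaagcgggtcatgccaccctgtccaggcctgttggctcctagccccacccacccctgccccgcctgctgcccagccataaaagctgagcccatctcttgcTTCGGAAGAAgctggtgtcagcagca
Mgl2: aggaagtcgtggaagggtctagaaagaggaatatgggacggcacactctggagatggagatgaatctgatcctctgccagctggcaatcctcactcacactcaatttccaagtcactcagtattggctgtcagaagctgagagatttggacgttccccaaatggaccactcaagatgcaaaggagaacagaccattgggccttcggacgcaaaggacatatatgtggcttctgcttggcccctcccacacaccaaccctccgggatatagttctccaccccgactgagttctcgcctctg
Mrc1: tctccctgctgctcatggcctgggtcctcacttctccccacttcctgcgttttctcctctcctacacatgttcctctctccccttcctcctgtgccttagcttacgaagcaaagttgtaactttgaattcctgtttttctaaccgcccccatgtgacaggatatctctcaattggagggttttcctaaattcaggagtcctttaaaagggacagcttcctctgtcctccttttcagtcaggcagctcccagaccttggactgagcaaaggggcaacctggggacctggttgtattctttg

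Cish held the form with 3 bases between TTC and GAA at 2 places, starting at the first transcribed base and 11 bases after it, and they do not overlap. Ms4a7 held the form with 4 bases starting 13 bases before the gene start, and Cbr2 held it starting 24 bases after. Among further risen genes, Csf2rb2 held the 3-base form 15 bases before its start, and Clec7a held the 4-base form once, 131 or 125 bases before its start by its 2 RefSeq entries. Tlr6 and Il7r, also risen, held the 3-base form. Matches were not particular to risen genes. The fallen genes Clec5a, Pdia5, Edem2, Slc7a11, Ifit2, Hif1a and Top2a held one, as did Socs3, Sall1, Il1rn and Aldoc, which were not called. Over all risen genes neither form was much more frequent than over all genes tested. The 4-base form lay in 6.65% of 406 promoters of risen genes and 9.15% of 437 promoters of fallen genes, against 6.32% of the promoters of all 7069 tested genes with an entry. The 3-base form lay in 6.40% of the promoters of risen genes and 6.86% of those of fallen genes, against 8.19% of all. For genes risen at least 2-fold, 9.68% of 31 promoters held either form, against 13.7% of all. A gene with more than 1 entry counted once if any held the form. These shares describe a short window and carry no test.

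Of 39 genes listed for alternative activation, 21 could be tested, and 12 rose and 1 fell, where 5.64% and 6.32% of all genes tested did, with a median difference of 0.64 over the measured members against -0.02 for all genes. That median was 0.13 without the filter on dim probes, over 38 members, and 0.34 without background correction, and members such as Arg1 passed the filter through the IL-4 arrays alone. The list was drawn up with earlier results of these arrays known. Besides the 4 markers, the risen genes included Rnase2a, Mmp13, Clec10a, Tfrc, Flt1 and Klf4, and Ppargc1b and Irf4 by less (0.35 ± 0.09 and 0.32 ± 0.10). Irf4, a transcription factor that acts beside STAT6, lost its call in 12 of 15 fits that left out 1 array (adjusted p up to 0.14), and Ppargc1b, a coactivator of mitochondrial genes, without IL-4 replicate 1 (0.064). Tgm2, the transglutaminase often used as a marker of the same state in macrophages, fell instead, at 6.71, 6.89 and 6.69 with IL-4, against 7.14, 7.18 and 7.30 in untreated cells (-0.43 ± 0.07, adjusted p = 0.00082). The Tgm2, Irf4 and Ppargc1b calls were lost after scaling by the median alone. Many classical members were not seen. Retnla, Chil3, Ccl17, Ccl22, Ccl24, Alox15, Pparg, Cd36 and Fn1 were above background on no array of the series, and for these probes the arrays give no level to compare.

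Upstream of these genes, called differences of the signalling components ran from -0.47 to 1.21. Of 17 genes listed for the receptor and its JAK-STAT6 pathway, 12 could be tested, 4 rose and 2 fell, against 5.64% and 6.32% of all genes tested. Irs2, the adaptor that carries the IL-4 signal to PI3 kinase, read 7.37, 7.08 and 7.25 with IL-4, against 5.03, 6.06 and 6.56 in untreated cells, whose arrays spread widely (1.21 ± 0.25, adjusted p = 0.0059). Il13ra1, a subunit of the second IL-4 receptor, fell, at 9.22, 9.04 and 8.96 with IL-4, against 9.45, 9.57 and 9.63 in untreated cells (-0.47 ± 0.11, adjusted p = 0.011). Stat6 itself differed by -0.09 ± 0.10 (adjusted p = 0.62), Jak1 by 0.42 ± 0.20 (adjusted p = 0.19) and Jak2 was not called, while Jak3 and Il4ra were below background on every IL-4 and untreated array. The phosphatase genes moved in opposite directions: Ptpn1 rose by 0.43 ± 0.11 and Ptpn6 (SHP-1), which dampens JAK signals, fell, with a difference of -0.29 ± 0.07. Il13ra1, Ptpn1 and Ptpn6 lost their calls without IL-4 replicate 3 (adjusted p = 0.065, 0.12 and 0.12). Stat3 (0.64 ± 0.18) and Tyk2 (0.27 ± 0.08) also rose. Their calls were lost in 5 and 7 of the 15 fits without 1 array (adjusted p up to 0.18 and 0.12), and a second Stat3 probe differed by -0.20. The calls of Ptpn1, Ptpn6, Stat3 and Tyk2 were also lost after scaling by the median alone.

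Among the SOCS family and related inhibitors, 2 of 11 measured members rose, against 5.64% of all genes tested. Beside Cish this was Socs6 (0.40 ± 0.10), which was not called after scaling by the median alone or without IL-4 replicate 3 (adjusted p = 0.11). Socs2, a target of STAT5, differed by 0.22 ± 0.19 (adjusted p = 0.5) and Socs3, a target of STAT3, by 0.12 ± 0.29 (adjusted p = 0.85). Socs1, a known inhibitor of IL-4 signalling, was below background in both groups. Cish was the one measured SOCS-family gene that differed by more than 2-fold. It was also high with LPS/IFN-γ, at 8.29 ± 1.20 (SD, n = 3), and at 5.55 ± 0.40 with TGF-β.

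Secreted ribonucleases of the RNase A family were above background for 4 of 11 listed members, and these 4 rose, with a median of 1.45. Without the filter on dim probes the median over 10 members was 0.04, below that of the alternative activation list. These enzymes of the RNase A type are made by eosinophils and macrophages and act in host defence, and angiogenins also act on blood vessels. Rnase2a, an eosinophil-associated ribonuclease, read 9.33, 9.09 and 9.24 with IL-4, against 5.63, 5.81 and 6.11 in untreated cells, a 10.6-fold rise (3.40 ± 0.12, adjusted p = 8.8e-11). Ang2, a mouse angiogenin that is not angiopoietin 2, read 9.32, 9.27 and 9.29 with IL-4, against 6.87, 7.13 and 7.40 in untreated cells (2.18 ± 0.13, adjusted p = 4.6e-08). On both genes every IL-4 array lay above every untreated array, as naming by largest difference required, and the gap was wide. Rnase4 and Ang, which share a locus and its promoters, rose by 0.72 ± 0.14 and 0.54 ± 0.12. For each a second, dimmer probe gave no call (-0.14, adjusted p = 0.4, and 0.12, adjusted p = 0.52), so these rises rest on 1 probe each. Ang lost its call after scaling by the median alone. With near-identical paralogues in this family, a probe may bind more than 1 of them.

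Klk1b11, Klk1b27 and Klk1b8, genes of glandular kallikreins (serine proteases), also rose. They were outside the rule for naming genes and on no list, and were chosen after their values were seen. Klk1b11 read 9.90, 10.06 and 9.88 with IL-4, against 8.32, 8.42 and 8.48 in untreated cells (1.54 ± 0.13, adjusted p = 2.9e-06). Klk1b27 rose by 1.24 ± 0.09, and Klk1b8, below background in untreated cells, by at least 1.48-fold. The 3 genes are so alike in sequence that their probes may share signal, and they cannot be counted as separate observations. With LPS/IFN-γ and TGF-β Klk1b11 averaged 6.13 ± 0.26 and 5.35 ± 0.37 (SD, n = 3 each), below the untreated mean of 8.41 ± 0.06 (n = 6).

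Of 18 C-type lectins listed, receptors that bind sugars on microbes and on dying cells, 8 were measured, 5 rose and 2 fell, against 5.64% and 6.32% of all genes tested. Clec10a (MGL1), the close relative of Mgl2, read 9.57, 9.97 and 10.20 with IL-4, against 8.20, 8.36 and 8.46 in untreated cells (1.57 ± 0.15, adjusted p = 8.8e-06). Clec4a3, a lectin of the DCIR group, read 9.67, 9.61 and 9.48 with IL-4, against 8.06, 8.19 and 8.35 in untreated cells (1.38 ± 0.09, adjusted p = 3.6e-07). The groups were far apart on both genes. Clec7a (dectin-1), a receptor for fungal glucans, rose by 0.88 ± 0.16, and its second, dimmer probe gave no call (0.45, adjusted p = 0.082). Clec4d, which senses mycobacterial glycolipids, fell, at 10.07, 10.22 and 10.10 with IL-4, against 10.65, 10.76 and 10.91 in untreated cells (-0.64 ± 0.11, adjusted p = 0.0017), and Clec5a, a receptor that signals through the adaptor Tyrobp, differed by -0.41 ± 0.10, a call lost without IL-4 replicate 2 or 3 (adjusted p up to 0.061) and after scaling by the median alone. Clec4e, the partner of Clec4d, was not called.

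Of 23 Toll-like receptors and adaptors listed, 18 were measured, and 2 rose and 2 fell, against 5.64% and 6.32% of all genes tested. Tlr2, which senses bacterial lipoproteins, fell, at 9.76, 9.54 and 9.51 with IL-4, against 10.40, 10.70 and 10.81 in untreated cells (-1.03 ± 0.12, adjusted p = 5.2e-05). Cd14, which hands LPS and lipoproteins to Toll-like receptors, read 10.23, 10.06 and 10.26 with IL-4, against 10.79, 10.86 and 10.96 in untreated cells (-0.69 ± 0.07, adjusted p = 2.5e-05). Both genes were lower on every IL-4 array than on every untreated array, which for Tlr2 the naming by largest difference required. Tlr6 and Tlr7 rose by 0.44 ± 0.12 and 0.32 ± 0.09, and lost their calls in 3 and 6 of the fits without 1 array (adjusted p up to 0.13 for each) and both after scaling by the median alone. Tlr4, the LPS receptor, and the adaptor gene Myd88 were not called. Pilrb1 (-0.96 ± 0.10), an activating receptor, and its inhibitory counterpart Pilra (-0.84 ± 0.17), Pilra chosen after its value was seen, fell together. Hcar2, the niacin receptor, fell too (-0.90 ± 0.19), as did Gpr84, a receptor for medium-chain fatty acids (-1.01 ± 0.28), whose call was lost without any 1 of the IL-4 arrays or untreated replicate 5 (adjusted p up to 0.1).

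Of 24 chemokines listed, 12 were measured, 2 rose and 3 fell, against 5.64% and 6.32% of all genes tested, and all 5 were of the CC type. Ccl7 and Ccl2 attract monocytes through the receptor CCR2. Ccl7 read 7.33, 7.42 and 7.17 with IL-4, against 4.78, 4.99 and 5.50 in untreated cells, where it was below background, at least 3.05-fold higher with IL-4 (adjusted p = 5.3e-06). Ccl2 read 7.14, 7.31 and 7.11 with IL-4, against 5.77, 6.02 and 6.34 in untreated cells (1.16 ± 0.21, adjusted p = 0.0024). Ccl3, Ccl4 and Ccl9, chemokines that draw in monocytes and other leukocytes, went the other way. Ccl3 read 10.26, 10.23 and 10.04 with IL-4, against 11.21, 11.36 and 11.58 in untreated cells (-1.20 ± 0.09, adjusted p = 6.4e-07). Ccl9 read 9.07, 8.87 and 8.86 with IL-4, against 9.86, 10.05 and 10.27 in untreated cells (-1.09 ± 0.10, adjusted p = 8.5e-06). Ccl3 and Ccl9 had groups that did not overlap, as naming by largest difference required. Ccl4 fell less (-0.52 ± 0.12, adjusted p = 0.011), and its call was lost without IL-4 replicate 3 (0.058) and after cyclic loess.

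Inflammatory cytokines did not move as one. Il1b, the pro-inflammatory interleukin, read 6.97, 7.0 and 7.08 with IL-4, against 5.41, 5.56 and 6.16 in untreated cells (1.37 ± 0.14, adjusted p = 1.3e-05), and was above background on all 3 IL-4 and on 2 of 6 untreated arrays. Tnf read 7.62, 7.88 and 7.73 with IL-4, against 8.44, 8.52 and 8.74 in untreated cells (-0.81 ± 0.11, adjusted p = 0.00032). Il1b rose and Tnf fell, and the groups did not overlap on either gene. Il1b was the only 1 of 6 measured genes of the interleukin-1 family to be called, and the receptor antagonist gene Il1rn differed by -0.10 ± 0.53. S100a8, a subunit of the alarmin calprotectin, read 5.13, 5.21 and 5.50 with IL-4, where it was never above background, against 6.66, 6.74 and 6.94 in untreated cells, at least 2.12-fold lower with IL-4 (adjusted p = 2.9e-06). It was the only called gene of 7 measured S100 genes, and its partner S100a9 was below background on every array. Hp, the hemoglobin-binding protein haptoglobin, differed by -1.14 ± 0.34 (adjusted p = 0.041), but the call was lost in 11 of 15 fits without 1 array (up to 0.14).

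Of 25 cytokine receptor subunits listed, 18 were measured, 5 rose and 1 fell (Il13ra1). Csf2rb and Csf2rb2 encode the β chains of the receptors for GM-CSF, IL-3 and IL-5, and are near-identical genes, so their probes may share signal. Csf2rb read 9.47, 8.93 and 9.31 with IL-4, against 7.53, 8.06 and 8.32 in untreated cells (1.23 ± 0.18, adjusted p = 0.00038), and Csf2rb2 rose by 0.82 ± 0.14. Il7r, which also pairs with the common γ chain, read 10.54, 10.65 and 10.51 with IL-4, against 9.81, 9.95 and 10.16 in untreated cells (0.61 ± 0.10, adjusted p = 0.0012). Il10rb, a receptor chain for IL-10 and chosen after its value was seen, rose by 0.57 ± 0.11. Il6ra rose by 1.0 ± 0.29, with untreated arrays at 7.12 to 8.84, and lost its call without IL-4 replicate 1 or 3 or untreated replicate 2 (adjusted p up to 0.13). After scaling by the median alone 2 of the list were called higher, and the calls of Il7r, Il10rb and Il6ra were lost.

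Genes of antigen presentation and T cell contact rose in part. Cd74, the invariant chain that escorts MHC class II, read 11.66, 11.72 and 11.49 with IL-4, against 8.83, 8.91 and 9.08 in untreated cells, a 6.47-fold rise (2.69 ± 0.13, adjusted p = 3.7e-09). It was the only 1 of 9 measured genes of class II presentation to be called. The class II chains H2-Aa, H2-Ab1 and H2-Eb1 and their regulator Ciita were below background on all IL-4 and untreated arrays, and H2-DMa and H2-DMb1, which load peptides, were not called. Cd40 (1.19 ± 0.19) and Cd274 (PD-L1; 0.93 ± 0.18), a costimulatory and an inhibitory signal to T cells, also rose. Both, and Il23a below, were chosen after their values were seen. Cd40 had 4 probes, of which 2 gave no call. Il23a, a subunit of IL-23, was below background with IL-4 and at least 1.11-fold lower. Ms4a7, a membrane protein of macrophages, read 9.32, 9.17 and 9.19 with IL-4, against 7.21, 7.37 and 7.41 in untreated cells (1.88 ± 0.15, adjusted p = 2e-06).

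A few lipid genes rose, some of them by much. Lipn, a lipase of the acid lipase family known from skin, read 10.47, 10.38 and 10.17 with IL-4, against 7.53, 7.84 and 7.90 in untreated cells (2.55 ± 0.11, adjusted p = 1.4e-09). Fabp5, a fatty acid carrier, read 9.68, 9.60 and 10.03 with IL-4, against 8.61, 8.91 and 9.0 in untreated cells (0.90 ± 0.11, adjusted p = 0.00011). Acadm, an enzyme of fatty acid oxidation, rose by 0.41 ± 0.07. Together with Ppargc1b these made 4 rises and 0 falls among 23 measured genes of fatty acid uptake and oxidation, with a list median of 0.12, and Cd36, Fabp4, Cpt1a and Pparg were below background on every array. Of 18 measured genes of sterol synthesis, 2 rose, Stard4 (0.80 ± 0.21) and Mvd (0.31 ± 0.09), and neither call held without IL-4 replicate 1 (adjusted p up to 0.1 and 0.16 in the fits without 1 array). Acadm, Ppargc1b, Stard4 and Mvd lost their calls after scaling by the median alone. Cbr2, a carbonyl reductase, read 9.16, 8.78 and 9.01 with IL-4, against 6.88, 7.07 and 7.44 in untreated cells (1.85 ± 0.13, adjusted p = 5.3e-07).

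Importers of iron and zinc were among the rises. Tfrc, the transferrin receptor that brings iron into cells, read 13.44, 13.23 and 13.47 with IL-4, against 12.22, 12.26 and 12.45 in untreated cells (1.07 ± 0.09, adjusted p = 1.9e-06), and Hfe, which binds it and acts on iron uptake, rose by 0.82 ± 0.11. Slc39a12, a zinc importer, read 9.55, 9.33 and 9.40 with IL-4, against 7.59, 7.70 and 7.87 in untreated cells (1.72 ± 0.13, adjusted p = 1.1e-06). All 3 genes had IL-4 arrays above every untreated array, which for Slc39a12 the naming by largest difference required. Tfrc and Hfe were chosen after their values were seen, as were Xdh, the xanthine oxidoreductase (0.94 ± 0.07), Igf1, a growth factor for neurons and oligodendrocytes (0.80 ± 0.08), and Il4i1, an amino acid oxidase known as an IL-4-induced gene (1.42 ± 0.18, adjusted p = 0.00014), which all rose. Apart from Arg1, arginine and polyamine genes moved little. Of 11 measured, Ass1, which makes arginine again from citrulline, rose by 0.32 ± 0.06, and Odc1, the first enzyme of polyamine synthesis, fell, at 12.64, 12.54 and 12.72 with IL-4, against 12.84, 12.91 and 12.96 in untreated cells (-0.27 ± 0.07, adjusted p = 0.018). The call for Odc1 was lost without IL-4 replicate 1 or 2 (up to 0.09), and those for Ass1 and Odc1 after scaling by the median alone. Slc7a2, the arginine importer, differed by 0.76 ± 0.26 (adjusted p = 0.069), and Nos2, the nitric oxide synthase, was below background in both groups.

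Matrix-degrading genes were led by Mmp13, a collagenase, which read 8.41, 8.59 and 8.42 with IL-4, against 6.15, 6.47 and 7.0 in untreated cells (1.96 ± 0.15, adjusted p = 1.1e-06). Of 12 measured genes of this list, 2 rose and 1 fell. Plau, the urokinase that activates plasminogen, rose by 0.85 ± 0.20 and lost its call without IL-4 replicate 1 (adjusted p = 0.065), while Plaur, its receptor, fell, at 7.14, 6.96 and 6.93 with IL-4, against 7.56, 7.70 and 7.93 in untreated cells (-0.72 ± 0.16, adjusted p = 0.009). Mmp9 and Mmp12 were not called. Further strong falls concerned enzymes and regulators of other kinds. St3gal6, which caps sugar chains with sialic acid, was below background with IL-4 and at least 2.17-fold lower (5.65, 5.57 and 5.24 with IL-4, against 6.76, 6.80 and 6.85 in untreated cells). Wwtr1 (TAZ), a Hippo pathway coactivator, differed by -1.05 ± 0.14, Pid1, which acts on insulin signalling, by -0.98 ± 0.11, Klhl6 by -0.96 ± 0.18, Zan by -0.93 ± 0.16 and Arhgap24 by -0.92 ± 0.08, where a second probe gave no call (-0.41, adjusted p = 0.17). Among the rises, Rnf19b, a ubiquitin ligase, rose by 1.79 ± 0.15, and its dimmer probe gave no call (0.53, adjusted p = 0.16). Sppl2a, a protease that cleaves Cd74, had untreated arrays from 5.24 to 8.27, and its rise of 1.92 ± 0.53 lost its call without any 1 of the IL-4 arrays or untreated replicate 2 (up to 0.11).

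**Figure D3:**
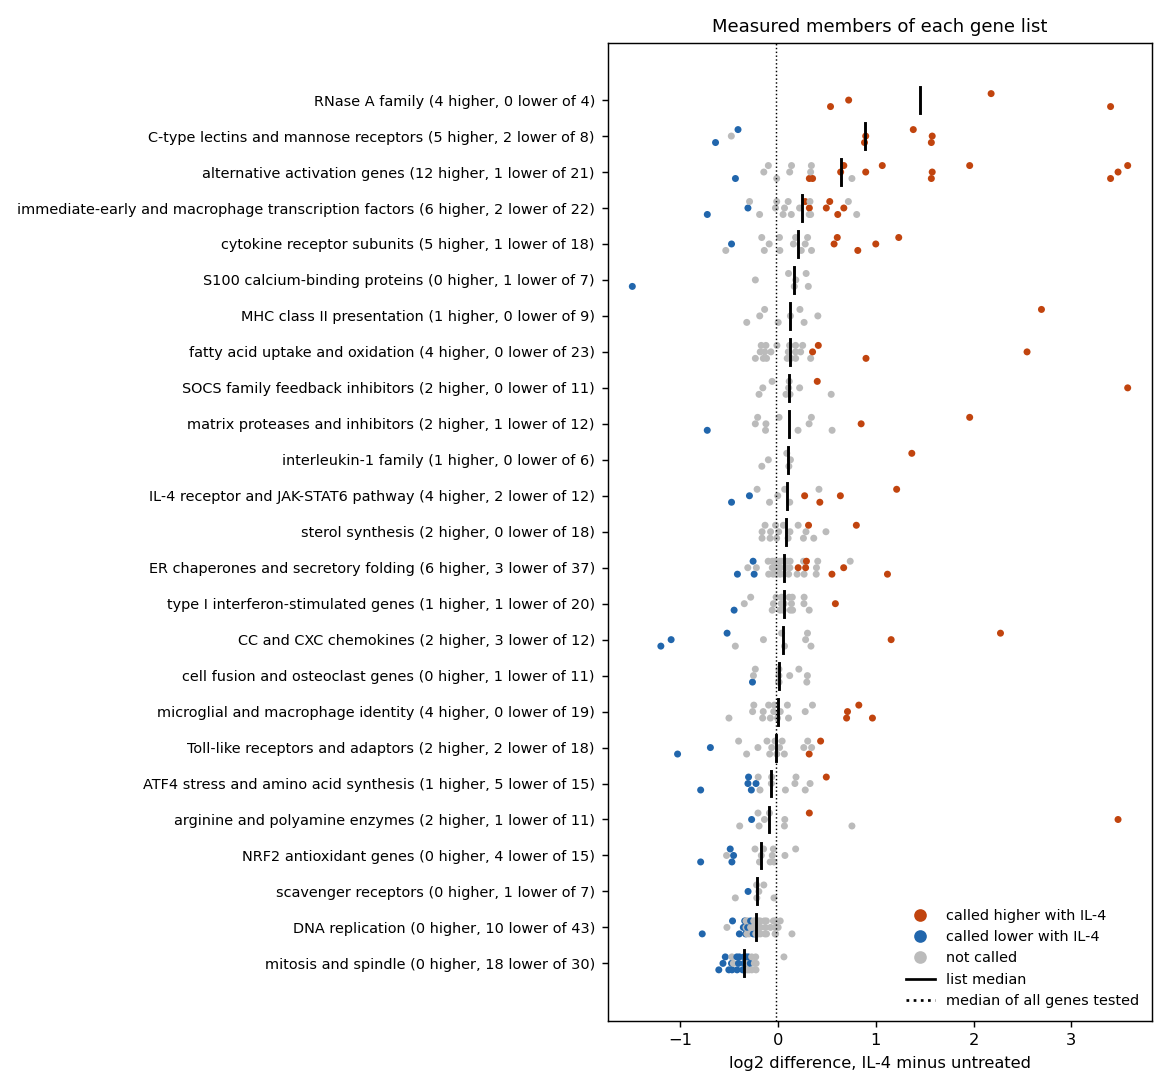
Difference in log2 level, IL-4 minus untreated (horizontal axis), of every measured member of 25 gene lists, each list a row with its counts; red points were called higher, blue called lower and grey not called, black bars are list medians and the dotted line is the median of all genes (-0.02). Over the measured members the medians run from 1.45 (RNase A family) and 0.89 (C-type lectins) to -0.35 (mitosis and spindle).

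Cell division genes fell by small amounts. Of 42 mitosis and spindle genes listed, 30 were measured, 18 fell (6.32% of all genes tested did), 0 rose, and 29 had a difference below 0, with a median of -0.35. Of 47 DNA replication genes listed, 43 were measured, 10 fell, 0 rose, and 40 were below 0, with a median of -0.23. Kif2c, a kinesin that frees chromosomes from faulty attachments, read 9.01, 9.04 and 8.99 with IL-4, against 9.44, 9.65 and 9.76 in untreated cells (-0.60 ± 0.08, adjusted p = 0.00012). Aurkb, the kinase that checks those attachments, read 9.85, 9.88 and 9.99 with IL-4, against 10.33, 10.45 and 10.55 in untreated cells (-0.54 ± 0.07, adjusted p = 0.00012). The IL-4 arrays lay below all untreated arrays on both genes. Bub1b, of the spindle checkpoint, differed by -0.50 ± 0.08, Top2a, which untangles DNA, by -0.48 ± 0.10, and Cdc20, which starts anaphase, by -0.39 ± 0.07. For Top2a a second, dimmer probe gave no call (-0.21, adjusted p = 0.52). The kinases Cdk1 (-0.35 ± 0.08) and Plk1 (-0.40 ± 0.11) also fell. Cdk1 lost its call without IL-4 replicate 3 (adjusted p = 0.063) and Plk1 in 5 fits without 1 array (up to 0.12).

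Tk1, the thymidine kinase of S phase, led the replication genes, at 9.54, 9.52 and 9.46 with IL-4, against 10.20, 10.28 and 10.38 in untreated cells, and fell to 0.585 of the untreated level (-0.77 ± 0.06, adjusted p = 1.2e-06). Mcm2, part of the helicase that opens DNA, read 10.43, 10.40 and 10.29 with IL-4, against 10.64, 10.81 and 10.83 in untreated cells (-0.39 ± 0.07, adjusted p = 0.0018). Rrm1, a subunit of the enzyme that makes deoxynucleotides, differed by -0.35 ± 0.06, and Pole, a DNA polymerase, by -0.46 ± 0.11, a call lost without IL-4 replicate 1 or 2 (up to 0.065). Within the 3 chips the median of the mitosis and spindle genes was -0.36, -0.37 and -0.27, and that of the replication genes was -0.25, -0.24 and -0.19. The medians stayed below 0 in every alternative fit, while the counts moved both ways. With the authors' log2 values 24 mitosis and spindle and 22 replication genes were called lower, and without LPS/IFN-γ replicate 3 22 and 13 were. Without IL-4 replicate 1 or 2, 12 mitosis and spindle genes were called in each case, and after scaling by the median alone 7 were. For DNA replication these counts were 7, 4 and 2. Cdk1, Plk1, Cdc20, Mcm2 and Rrm1 were among the calls lost after that scaling. No gene of either list was called higher in any of these 5 fits.

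**Figure D4:**
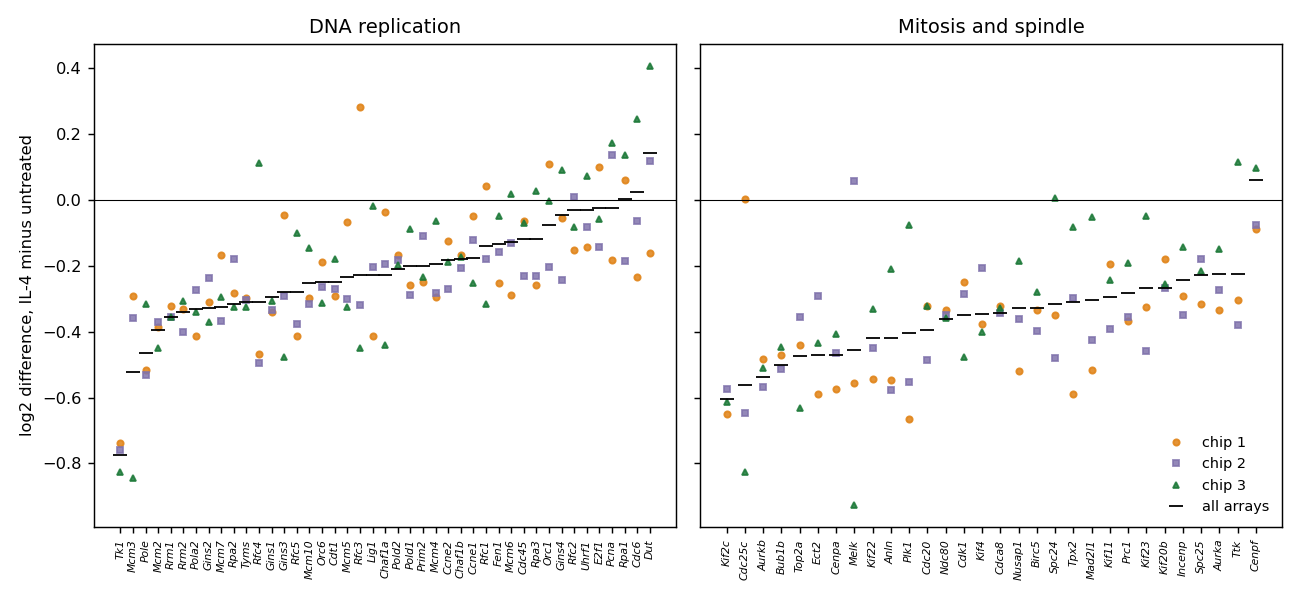
Difference in log2 level, IL-4 minus untreated (vertical axis), for the 43 measured DNA replication genes (left) and the 30 measured mitosis and spindle genes (right), ordered by the value over all arrays (black bars), with the value within each bead chip as coloured points. Tk1 lies lowest on the left (-0.77) and Kif2c lowest on the right (-0.60), and 40 and 29 of the black bars are below 0.

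Genes of the endoplasmic reticulum, where secreted proteins are folded, did not move as a group: 6 of 37 measured rose and 3 fell, with a median of 0.06. Pdia4, a disulfide isomerase, read 11.69, 11.64 and 11.47 with IL-4, against 10.11, 10.52 and 10.70 in untreated cells (1.12 ± 0.12, adjusted p = 2.5e-05). Dnajb9 rose by 0.67 ± 0.14 and Calr by 0.55 ± 0.13, the Calr call lost without IL-4 replicate 1 or 3 (adjusted p up to 0.082). Hspa5 (BiP), the main chaperone of the compartment, differed by 0.41 ± 0.19 (adjusted p = 0.19). Syvn1 rose by 0.29 ± 0.09, a call lost in 12 of 15 fits without 1 array (up to 0.17), and Pdia5 (-0.41 ± 0.09), Edem2 (-0.25 ± 0.06) and Ssr2 (-0.24 ± 0.06) fell by little, each losing its call without 1 or more of the IL-4 arrays (up to 0.12). Of 15 measured genes of the ATF4 stress response 5 fell and 1 rose, and of 15 measured NRF2 antioxidant genes 4 fell and 0 rose. Slc7a11, the cystine importer counted in both lists, read 9.14, 9.0 and 9.03 with IL-4, against 9.69, 9.82 and 10.01 in untreated cells (-0.79 ± 0.13, adjusted p = 0.0013), and Gclm, a subunit of the enzyme that starts glutathione synthesis, fell by 0.47 ± 0.10. Srxn1 and Osgin1 lost their calls without any 1 of the IL-4 arrays, and Hmox1 differed by 0.18 ± 0.12 (adjusted p = 0.35). Asns (-0.27 ± 0.07) and Mthfd2 (-0.30 ± 0.07), enzymes of asparagine and one-carbon synthesis, fell, and lost their calls without IL-4 replicate 1 or 2 (Asns, up to 0.12) and without IL-4 replicate 2 (Mthfd2, 0.068). Atf3 rose by 0.49 ± 0.13 and lost its call without IL-4 replicate 1 or 2 (up to 0.12). After scaling by the median alone Calr, Syvn1, Edem2, Ssr2, Atf3, Asns, Mthfd2, Srxn1 and Osgin1 were not called.

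Among 22 measured immediate-early and macrophage transcription factors, 6 rose and 2 fell. Klf4, a partner of STAT6 in macrophages, read 7.13, 7.18 and 7.39 with IL-4, against 6.35, 6.59 and 6.73 in untreated cells (0.67 ± 0.11, adjusted p = 0.0013). Ier3, an immediate-early gene that acts on cell survival, rose by 0.53 ± 0.07, and Klf2 by 0.61 ± 0.16, lost without IL-4 replicate 1 or 2 (adjusted p up to 0.11). Cebpb, which drives inflammatory and arginase genes, fell, at 13.06, 13.14 and 13.12 with IL-4, against 13.37, 13.41 and 13.47 in untreated cells (-0.31 ± 0.06, adjusted p = 0.0027). Some genes known to follow ERK kinase activity fell. Dusp6, a phosphatase that switches ERK off, read 6.53, 6.71 and 6.52 with IL-4, against 7.14, 7.44 and 7.76 in untreated cells (-0.85 ± 0.11, adjusted p = 0.00019), Etv4 read 6.11, 6.01 and 5.71 with IL-4, against 6.65, 6.75 and 7.16 in untreated cells (-0.88 ± 0.11, adjusted p = 0.00011), and Egr1 was below background with IL-4 and at least 1.11-fold lower. The 3 genes did not overlap between groups, which for Etv4 the naming by largest difference required. They were picked out together after their values were seen, and others of the kind did not go with them: Dusp4 rose by 0.58 ± 0.14, Etv5 differed by -0.19 ± 0.10 (adjusted p = 0.24) and Egr2 by 0.33 ± 0.28 (adjusted p = 0.49). For Dusp6 a second, dimmer probe gave no call (-0.27, adjusted p = 0.42), and of 4 Dusp4 probes only the one used was called. The Dusp4 call was lost without IL-4 replicate 2 or 3 (adjusted p up to 0.065), and those of Dusp4, Klf2 and Cebpb after scaling by the median alone. Type I interferon-stimulated genes had 1 rise (Parp14) and 1 fall (Ifit2) among 20 measured, and a median of 0.06. A second Parp14 probe differed by -0.14, and the Ifit2 call was lost without IL-4 replicate 1 or 3 (up to 0.071) and after cyclic loess. Other lists held few calls. Of 7 measured scavenger receptors, Scara3 fell (-0.31 ± 0.09), with the call lost in 4 fits without 1 array (up to 0.16), and of 11 measured genes of cell fusion and osteoclasts, Cd9 fell (-0.26 ± 0.08), lost in 11 (up to 0.16). Neither was called after scaling by the median alone or cyclic loess.

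To see where IL-4 stood apart from the other treatments as well, a gene had to differ in the same direction from untreated, LPS/IFN-γ and TGF-β cells, with the largest of the 3 p-values adjusted over all genes. This held for 145 genes (1.69%), 94 with IL-4 as the highest group (1.10%) and 51 with IL-4 as the lowest (0.596%). IL-4 differed from LPS/IFN-γ on 50.8% of genes and from TGF-β on 30.5%. The count of 145 also fell without any 1 of the IL-4 arrays. It was 85, 91 and 83 without IL-4 replicate 1, 2 and 3, and 54 after scaling by the median alone. Arg1 and Rnase2a were highest with IL-4, and Arg1 averaged 4.65 ± 0.11 with LPS/IFN-γ and 4.53 ± 0.06 with TGF-β (SD, n = 3 each). Lipn averaged 10.34 ± 0.15 with IL-4, 5.84 ± 0.24 with LPS/IFN-γ, 6.90 ± 0.16 with TGF-β and 7.79 ± 0.14 in untreated cells (n = 6), so both other treatments averaged below the untreated level. Ang2 and Slc39a12 had the same order of IL-4 highest, untreated next and both other treatments below. Tfrc averaged 13.38 ± 0.13 with IL-4, against 12.31 ± 0.10 in untreated cells, and Igf1 averaged 12.59 ± 0.08 with IL-4, against 11.80 ± 0.14 in untreated cells. Mgl2, Clec10a, Clec4a3, Mrc1, Mmp13, Cbr2 and Ms4a7 were also among the 94. Cd74, Cish, Ccl7, Ccl2, Aif1, Cd40, Cd274 and Rnf19b, which rose with IL-4, were not: Cd74 averaged 12.16 ± 0.41 with LPS/IFN-γ, above its IL-4 mean of 11.62 ± 0.12, and Ccl2 averaged 10.46 ± 0.69, above its IL-4 mean of 7.18 ± 0.10.

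Among the 51 genes lowest with IL-4, several averaged above the untreated level with both other treatments, a difference not tested here. Tlr2 averaged 9.60 ± 0.14 with IL-4, 12.37 ± 0.26 with LPS/IFN-γ and 12.29 ± 0.10 with TGF-β (SD, n = 3 each), and 10.63 ± 0.18 in untreated cells (n = 6). S100a8 averaged 5.28 ± 0.20 with IL-4, 7.68 ± 0.35 with LPS/IFN-γ and 8.55 ± 0.14 with TGF-β, and 6.77 ± 0.11 in untreated cells. Tnf averaged 7.74 ± 0.13 with IL-4, 12.66 ± 0.33 with LPS/IFN-γ and 9.25 ± 0.07 with TGF-β, and 8.55 ± 0.12 in untreated cells. For these 3 genes IL-4 was on the other side of the untreated level from both stimuli. Dusp6, Arhgap24, Wwtr1, Plaur and Zbtb32, a transcriptional repressor, had the same order, with IL-4 the lowest group. Zbtb32 was above background on 2 untreated and on no IL-4 array, and its call against untreated was lost without background correction and with the authors' log2 values. Hif1a, the hypoxia-response factor chosen after its value was seen, averaged 7.53 ± 0.08 with IL-4 and 8.08 ± 0.10 in untreated cells, while Ankrd37, known as one of its targets, was among the 94 genes highest with IL-4 (0.99 ± 0.11 against untreated). The groups share the untreated arrays, so these comparisons are not independent of each other.

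**Figure D5:**
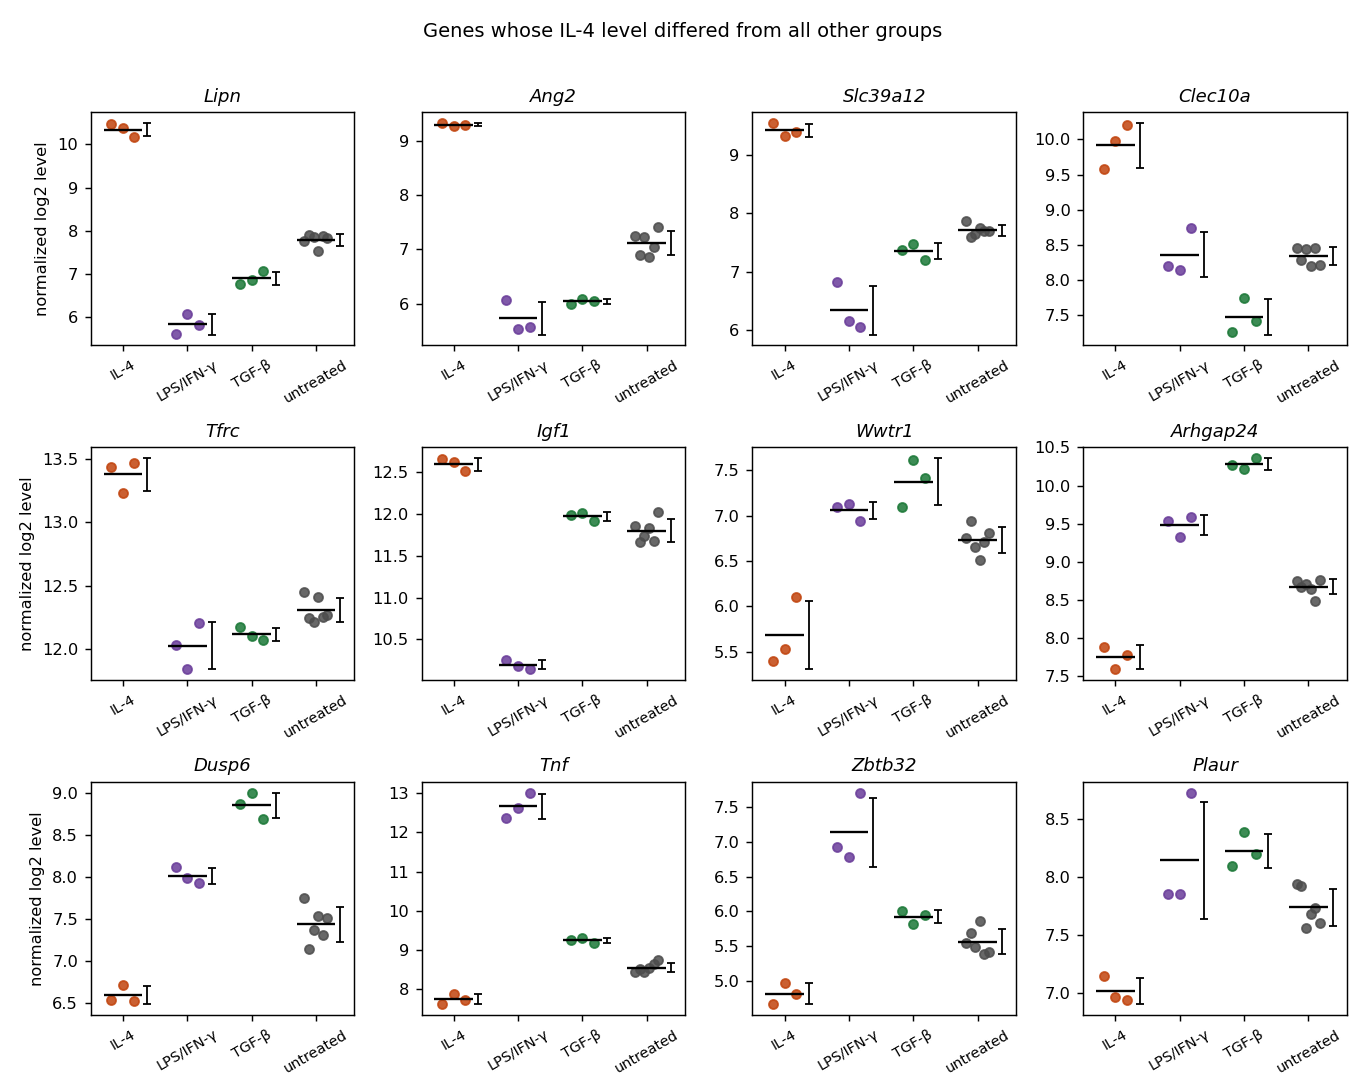
Normalized log2 level (vertical axes, each panel on its own scale and not starting at 0) on every array of the 4 groups for 12 genes whose IL-4 level differed in 1 direction from all other groups; points are arrays, black bars means with SD beside them. In the first 6 panels (Lipn to Igf1) IL-4 is the highest group, and in the last 6 (Wwtr1 to Plaur) the lowest.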

How the data were processed

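RNA of embryonic stem cell-derived microglia was read on 15 Illumina bead arrays. The deposited intensity of a probe is the mean signal of its beads, not corrected for background or scaled between arrays, and per the file headers it comes with a detection p-value. The authors also deposited normalized log2 values, which served as an alternative. Partek is named in the submitters' processing notes, with version and settings not given in the sources used.

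Signals of 45281 probes were background-corrected from the detection p (neqc, offset 16), quantile-normalized and set on the log2 scale (R 4.3.3, limma 3.58.1). A probe was kept where its detection p was below 0.01 on 3 arrays or more, which left 15434, 13309 with 1 current gene symbol and 2125 without, and the brightest probe stood for each of 8558 genes. For some called genes another kept probe gave no call. Besides those given in the Results, they were Asns, Cdc20, Dnajb9, Edem2, Hp, Ifit2, Il6ra, Il7r, Pdia5, Ptpn6, Slc7a11, Srxn1 and Tyk2. Each uncalled probe of these differed in the same direction as the one used. Per array 13601 to 14789 probes were above background, with a median signal of 130 to 153.9, and the median standard error of a difference was 0.101. The number of arrays limits the precision. A model with 4 group means was fitted (lmFit, eBayes, two-sided, Benjamini-Hochberg). On simulated data with independent noise it recovered 97 of 100 genes changed 2-fold and 76 of 100 changed 1.5-fold, with 9 false among 182 calls. Smaller changes, as many of the calls here were, and effects shared by the arrays of a chip were not simulated. A gene with no probe above background in 1 group has a lower bound, which sets that group at the dimmest probe above background on each array (log2 5.56 to 5.91). Arrays of a group correlated at 0.983 to 0.996 over genes, which are not independent, and IL-4 with untreated arrays at 0.982 to 0.991.

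The lists, and the rule for naming genes, were chosen with earlier results of these data known. The rule took, in each direction, the 15 called genes with the largest difference whose IL-4 arrays all lay outside the untreated range (predicted gene models skipped), up to 4 called genes per list and direction, the 8 most different genes in each direction among those with IL-4 outside the other 3 groups, and genes fixed by name (111 in all). A further 40 genes were named after their values were seen, among them Irf4, Clec7a, Top2a, Cdk1, Plk1, Cdc20, Dusp4, Etv5, Egr2, Hspa5, Hmox1, Il1rn, Nos2, Csf1r, Trem2 and Tyrobp. Lists have counts and medians and no test.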

Additional observations from a re-analysis of the deposited data

Results flagged for a closer look

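For the genes named, the 6 untreated arrays were searched for a single array far from the other 5 (Dixon's test at the 95% level), which chance gives in about 1 of 20 groups. This marked 8 of 151 genes. Syvn1 read 11.28 on untreated replicate 2, against 11.50 to 11.59 on the other untreated arrays. Mthfd2 read 11.82 on untreated replicate 5, against 11.92 to 11.97 on the others. Fabp5 read 8.61 on untreated replicate 1, against 8.87 to 9.0. Mertk read 8.11 on untreated replicate 3, against 7.67 to 7.83, and Cdc20 11.50 on the same array, against 11.22 to 11.29. Jak1 read 8.21 on untreated replicate 5, against 7.76 to 7.91. Tyrobp read 12.10 on untreated replicate 1, against 12.37 to 12.53. Nos2 read 5.73 on untreated replicate 6, against 4.76 to 5.02, and was not above background on any untreated array.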

How the results depend on the processing

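The count of genes that differed between IL-4 and untreated cells (1024) stayed within 1.5 times under most changes to the processing. The exceptions were 345 after scaling by the median alone, 637 with the replicate block and 1770 with the authors' log2 values. Fits without 1 array gave 594 (without IL-4 replicate 1) to 1410 (without LPS/IFN-γ replicate 3). The number of genes with IL-4 outside the other 3 groups (145) was 54 after scaling by the median alone and 248 with the authors' log2 values, and 83 (without IL-4 replicate 3) to 203 (without LPS/IFN-γ replicate 3) in fits without 1 array. The causes were not tested. The count of 1024 fell without any 1 IL-4 array (594 to 748), untreated array (808 to 975) or TGF-β array (944 to 1022). It rose without any 1 LPS/IFN-γ array (1037 to 1410). The replicate block used the 9 IL-4 and untreated arrays alone, and untreated replicates 4 to 6 have no IL-4 array of their number. Of 126 called genes named, 40 lost their call after scaling by the median alone, 23 with the replicate block (Ass1, Cebpb, Gclm and Il10rb among them, which stayed called in every fit without 1 array), 15 without the filter on dim probes, 29, 22 and 28 without IL-4 replicates 1, 2 and 3, and at most 10 in any other fit. One value changed sign: Cdc25c differed by 0.0029 within chip 1, against -0.56 over all arrays. The replicate number is shared by IL-4 and untreated arrays, and deviations of arrays numbered 1, 2 and 3 correlated at 0.32, 0.252 and 0.067. The arrays numbered 1, and those numbered 2, shared a chip, while those numbered 3 did not. Arrays of different number were not compared, so these values cannot decide whether the number marks pairs. The main model included no pairing. Medians of the mitosis and spindle, DNA replication, alternative activation, C-type lectin and RNase A lists kept their sign under every alternative. The last 3 were lowest, at 0.13, 0.03 and 0.04, without the filter on dim probes, which admits members below background. Setting genes below background at their bound moved no list median among the 6 lists that hold one. Each of these 6 lists holds only 1 such gene, so its median could hardly move. Dim genes, near log2 5.56 to 5.91, are limited by signal over background, and their differences are smaller without background correction.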
